A study of Mus musculus with 14 samples.

Results

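In mouse hearts labelled Clk3 knockout (KO), 150 genes were selected on the size of the difference in their UTR share between TAC and sham. The UTR share is the percentage of a gene's reads that were counted in its untranslated column, as opposed to its coding column. TAC is taken as transverse aortic constriction, an operation that narrows the aorta and loads the left ventricle, and sham is the operation without the constriction. Of 51912 genes in the tables, 7526 had at least 200 counts in all 14 libraries. In 675 of these the shares of the 4 KO TAC libraries did not overlap those of the 4 KO sham libraries, and the 150 with the largest difference of group means were taken. The share was higher after TAC in 87 of them and lower in 63. Non-overlap in KO was found in 4.94% of the 7526 genes with a higher share and in 4.03% with a lower share. These counts were fixed by the selection and carry no test. The study asked what Clk3 does as the heart enlarges.

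All hearts were from mice of the C57BL/6J strain. The sham groups were wild type (WT, n = 4) and Clk3 KO (n = 4), each with 2 libraries from mice aged 11 weeks and 2 from mice aged 10 weeks. The TAC groups were WT (n = 2) and Clk3 KO (n = 4), all aged 10 weeks, so age and surgery are partly confounded. The labels state neither the allele, the sex nor the time between surgery and collection. Whether each library is a separate animal is not stated either, and p-values then cover only the spread among these libraries, part of which may be technical. Gene counts ranged from 11385818 to 20369637 per library.

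Most messenger RNAs carry a coding sequence between a short 5' UTR and a 3' UTR, where microRNAs and RNA-binding proteins act on stability and translation. The length of the 3' UTR is set by the poly(A) site used. Exons that are annotated only in transcripts without an open reading frame, such as transcripts that keep an intron, are also untranslated. Of 11975 genes with counts and no annotated coding sequence, 11894 had all their counts in the UTR column. How such exons were counted inside coding genes is not stated in the sources used here, so reads of a 3' UTR and reads of a retained intron cannot be told apart in these tables. The CLK kinases phosphorylate SR proteins, which help to choose splice sites, and retained introns in CLK transcripts are a known feature of their own regulation.

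Cardiomyocyte markers summed to 33270 to 45220 CPM over the 14 libraries, as the tissue label implies. Nppa, a natriuretic peptide gene that marks cardiac load, was at 104 to 231 CPM in the sham and at 627 to 1875 CPM in the TAC libraries. 2 libraries stood apart from the rest. Clk3 was at 53.1 CPM (gene counts after scaling every library to the same total) in the library labelled WT TAC 1, against 73.0 to 98.7 CPM in the 4 WT sham libraries, 92.7 CPM in WT TAC 2 and 51.7 to 66.4 CPM in the 8 KO libraries. The pseudogene Gm8730 was at 65.6 CPM in the library labelled WT TAC 1, within the 56.6 to 68.3 CPM of the KO libraries, and at 1.29 to 1.66 CPM in the other 5 WT libraries. The library labelled WT TAC 1 thus goes against its label on Clk3 and Gm8730. On Nppa it was at 1875 CPM, with WT TAC 2 at 1815 CPM and the KO TAC libraries at 627 to 1139 CPM. On Myh7 the values were 4594, 5760 and 1450 to 2914 CPM in the same order. The cause was not tested. Because of Clk3 and Gm8730, WT values that rest on the library labelled WT TAC 1 are also given for WT TAC 2 alone. It is then set against the 4 WT sham libraries, has no replicate, and edgeR takes its spread from the other groups. WT sham 1 had a median UTR share of 40.6% over the 7526 genes, against 35.01 to 37.96% in the other 13 libraries.

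The sequences below show annotated non-coding sequence of genes in which the share was lower. Each is the start of an intron that GENCODE M21 keeps inside a retained intron transcript of the gene (GRCm38, 5' to 3' on the gene's strand). The first 10 bases belong to the upstream exon and the capitals mark the first bases of the intron, its 5' splice site. The genes shown are the CLK kinases Clk2 and Clk3, the splicing regulators Hnrnpl and Rbm5, and Atp5l, which was called in WT.
Clk2 (chr3:89168914-89168943, plus strand): ctcatcttcaGTgagtgccagcccagcctt
Clk3 (chr9:57760804-57760833, minus strand): tgcttcctcgGTgagtggtggccagagtgt
Hnrnpl (chr7:28820265-28820294, plus strand): tgaatgtctgGTgggtactgtcatcagaaa
Rbm5 (chr9:107749688-107749717, minus strand): taactcacagGTaagtgctatttccctcct
Atp5l (chr9:44914631-44914660, minus strand): tacagttaagGTaactacgtgctaaatgaa

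The annotated introns measured 694 bases in Clk2, 2100 in Clk3, 270 in Hnrnpl, 3527 in Rbm5 and 1184 in Atp5l. The end of the coding sequence is the border at which the 3' UTR begins. The last 30 coding bases are shown for Notch2, which had the largest difference among the higher-share genes, and for a collagen gene. They are also shown for Syngr1, a lower-share gene with no annotated retained intron. Retained intron transcripts are annotated for Notch2 and Col1a2 too, so the choice of sequences shows no difference between the sets. Capitals mark the stop codon.
Notch2 (chr3:98147415-98147444, plus strand): ccacacagcaacatgcaggtgtatgcaTGA
Col1a2 (chr6:4540633-4540662, plus strand): gtggaggttggccccgtctgtttcaaaTAA
Syngr1 (chr15:80116047-80116076, plus strand): cctcagggctaccagtcgcagggctacTGA

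The transcripts shown extend for 2917 bases past the stop codon in Notch2, 882 in Col1a2 and 3425 in Syngr1.

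Among the 87 genes with a higher share in KO, the differences ran from 4.36 to 8.86 percentage points with a median of 4.91. The largest was in Notch2, a receptor of the Notch pathway. Its UTR share was 47.9, 48.0, 51.0 and 51.8% in the KO sham libraries and 59.3, 55.2, 61.2 and 58.5% in the KO TAC libraries. In WT it was 58.8, 55.5, 56.8 and 56.0% in sham hearts, 61.3% in the library labelled WT TAC 1 and 62.5% in WT TAC 2. Both WT TAC values lay above all 4 WT sham values, and the WT sham values lay above those of KO sham. The difference was 8.86 points in KO and 5.13 points in WT (edgeR log2 odds 0.32, SE 0.14, unadjusted p = 0.0304, adjusted p = 0.994), and 5.75 points with WT TAC 2 alone. Jag1, a ligand of Notch receptors, had differences of 6.47 points in KO, 3.63 points in WT and 6.03 points with WT TAC 2 alone.

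The other large differences with a higher share were in genes of several functions. Btbd9, which encodes a BTB domain protein, differed by 8.56 points in KO, but its KO sham values were 67.7, 51.6, 67.0 and 70.5%, so that KO sham 2 lay far below the rest. In WT the Btbd9 difference was -1.01 points, the opposite sign, and 0.2005 points with WT TAC 2 alone. Zfp710, a zinc finger gene, differed by 7.81 points in KO, 5.05 points in WT and 8.50 points with WT TAC 2 alone. Abca1, which exports cholesterol and phospholipid from cells, differed by 7, 3.82 and 3.31 points in the same order. Epg5, which acts in the fusion of autophagosomes with lysosomes, differed by 6.97 points in KO, -1.39 points in WT and 0.831 points with WT TAC 2 alone. Without WT sham 1, in which the Epg5 share was 54.6% against 40.4 to 43.1% in the other sham libraries, the WT difference was 1.71 points.

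Scn7a, a gene of the sodium channel family, differed by 6.86 points in KO and 6.59 points in WT, where both TAC values (52.5 and 53.3%) lay above all 4 sham values (42.8 to 50.4%). Sh3d19, which encodes an SH3 domain adaptor, differed by 6.67 points in KO, 2.78 points in WT and 3.15 points with WT TAC 2 alone. Rictor, a subunit of an mTOR complex, differed by 6.52, 0.838 and 4.05 points in that order. Its KO sham shares of 59.1 to 62.1% lay below every WT sham share of 64.7 to 69.0%. Ptpn21, a tyrosine phosphatase gene, differed by 6.50, 0.345 and 5.30 points. In 70 of the 87 genes the WT sham mean lay between the KO sham and the KO TAC mean, and in 6 it lay on the far side of the KO sham mean. For the 63 lower-share genes the counts were 48 and 11, and for all 7526 genes 3198 and 1975. Selection on a large KO difference favours such a position, so these counts support nothing.

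Among the 63 genes with a lower share in KO, the differences ran from -11.83 to -4.35 points with a median of -5.28. The largest was in Fam173b, which encodes a mitochondrial lysine methyltransferase. Its share was 57.9, 54.4, 58.0 and 53.1% in KO sham and 44.4, 47.9, 38.1 and 45.6% in KO TAC. In WT it was 50.5, 46.7, 44.0 and 42.1% in sham hearts, 34.5% in the library labelled WT TAC 1 and 40.2% in WT TAC 2. Both WT TAC values lay below all sham values of either genotype. The difference was -8.45 points in WT (edgeR log2 odds -0.48, SE 0.18, unadjusted p = 0.0146, adjusted p = 0.871), and -5.61 points with WT TAC 2 alone (log2 odds -0.32). Its gene count did not pass in WT (adjusted p = 0.173).

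Glrx2, a mitochondrial glutaredoxin, differed by -10.34 points in KO, where the sham values were 50 to 53.5%. The WT sham values of Glrx2, 37.5 to 43.5%, overlapped the KO TAC values of 37.5 to 46.2%, and the WT difference was -3.27 points, or -2.37 points with WT TAC 2 alone. Clasrp, which encodes an SR-like protein that associates with a CLK kinase, differed by -9.12 points in KO, -5.79 points in WT and -3.00 points with WT TAC 2 alone. Prickle3, a planar cell polarity gene, differed by -8.80, -5.29 and -4.59 points in the same order. In Clasrp and Prickle3 both WT TAC values lay below all 4 WT sham values. Taf1d, a subunit of the RNA polymerase I selectivity factor, differed by -7.60, -8.85 and -4.44 points, with WT TAC 2 at 32.0% inside the WT sham range of 31.1 to 41.1%. Smarcb1, a subunit of the SWI/SNF chromatin remodeller, differed by -7.05 points in KO and -2.54 points in WT, but by 1.138 points, the opposite sign, with WT TAC 2 alone. Sft2d1, a vesicle transport gene, differed by -6.86, -1.90 and -1.09 points.

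The selection used the KO libraries, so the WT libraries give the same measure in samples it did not use. The WT difference of mean share had the KO sign in 135 of the 150 genes (90.0%). Over all 7526 genes this figure was 64.7%, and over the 675 genes with non-overlapping KO shares it was 83.3%. The sign was shared by 75 of the 87 higher-share genes (86.2%, against 64.9% of all genes with a higher KO mean). It was shared by 60 of the 63 lower-share genes (95.2%, against 67.0% of all genes with a lower KO mean). The 3 exceptions among the lower-share genes were Gtf3c6, Top3b and Sugp2, named here after their values were seen. Across the 150 genes the KO and WT differences had a Pearson correlation of 0.812, which mostly reflects the sign, since it was 0.207 within the higher-share genes and 0.306 within the lower-share genes. Over all 7526 genes it was 0.466. With WT TAC 2 alone the 4 correlations were 0.672, 0.238, 0.234 and 0.422, and 74.4% of the 675 genes had the KO sign. These correlations are across genes that share the same libraries and are descriptions only.

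**Figure D1:**
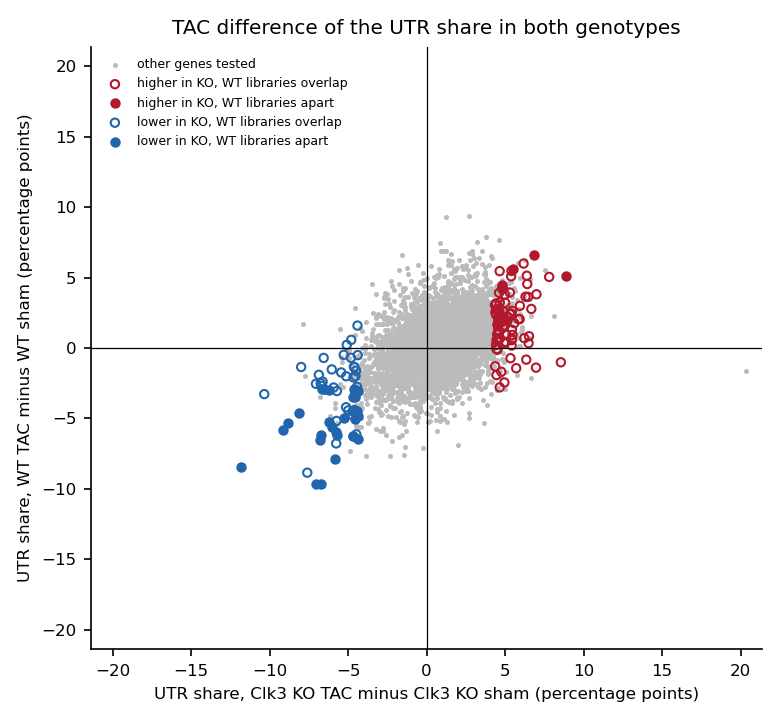
UTR share differences of TAC against sham in KO (x axis) and in WT (y axis), in percentage points, 1 point per gene. Grey points are the other genes tested, coloured points the 150 selected genes, and filled points those whose WT TAC and WT sham libraries do not overlap. The lower-share genes lie mostly in the lower left, while 12 of the 87 higher-share genes do not lie above 0 in WT.

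The WT TAC and WT sham shares did not overlap in the KO direction in 7 of the higher-share genes (against 2.95% of all genes with a higher WT share) and in 25 of the lower-share genes (against 5.30% with a lower one). None of the 150 was apart in the opposite direction. The 7 were Notch2, Scn7a, Col1a2, Gimap4, Pcdh19, Ccnyl1 and Zscan26. The 25 included Fam173b, Clasrp, Prickle3, Upf3a, Syngr1, Hnrnpl, Atp5l, Clk3, Fam53a and Pla2g16. With WT TAC 2 alone, which makes non-overlap easier, 31 higher-share genes lay above all 4 sham values (background 15.6%) and 25 lower-share genes below them (background 11.0%). In the opposite direction 1 higher-share and 7 lower-share genes were then apart.

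The WT TAC libraries differed in which genes moved. Against the WT sham mean, the library labelled WT TAC 1 had the KO sign in all 63 lower-share genes (background 74.8%) with a median of -5.57 points, but in only 51 of the 87 higher-share genes (background 43.6%) with a median of 0.557 points. WT TAC 2 showed the reverse order. It had the KO sign in 78 of the 87 higher-share genes (background 74.6%) with a median of 3.23 points, and in 46 of the 63 lower-share genes (background 51.4%) with a median of -1.44 points. Over all 7526 genes of either direction, 54.2% had the KO sign in the library labelled WT TAC 1 and 65.3% in WT TAC 2. WT agreement of the lower-share genes was thus weaker without the library labelled WT TAC 1, with 73.0% in place of 95.2%. The background fell too, to 51.4% from 67.0%, and the agreement stayed above it. Over all 7526 genes the median difference was -0.437 points in the library labelled WT TAC 1 and 0.700 points in WT TAC 2.

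WT sham 1 moved the higher-share genes. Their median share was 54.5% in WT sham 1 and 47.8, 47.6 and 47.8% in WT sham 2 to 4. The same median was 50.2% in the library labelled WT TAC 1, 52.0% in WT TAC 2, 44.6 to 46.4% in KO sham and 48.3 to 53.4% in KO TAC. Without WT sham 1, 83 of the 87 had the KO sign (background 83.7%), and 51 were apart in WT, where 28.1% of all genes were apart with a higher share. The share of signs in agreement was therefore closer to its background once WT sham 1 was left out. The lower-share genes kept the KO sign in 58 of 63 (background 53.9%), with 28 apart (background 6.78%). Over all genes of either direction 71.8% had the KO sign.

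With both libraries that stand apart left out, a comparison added after the values were seen, WT TAC 2 was set against WT sham 2 to 4. The KO sign was then found in 82 of the 87 higher-share genes (94.3%, background 84.6%) and in 42 of the 63 lower-share genes (66.7%, background 41.6%). The median difference was 4.79 points in the higher-share genes, -1.62 points in the lower-share genes and 1.65 points over all 7526 genes. With 1 TAC library there is no replicate check on these values.

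**Figure D2:**
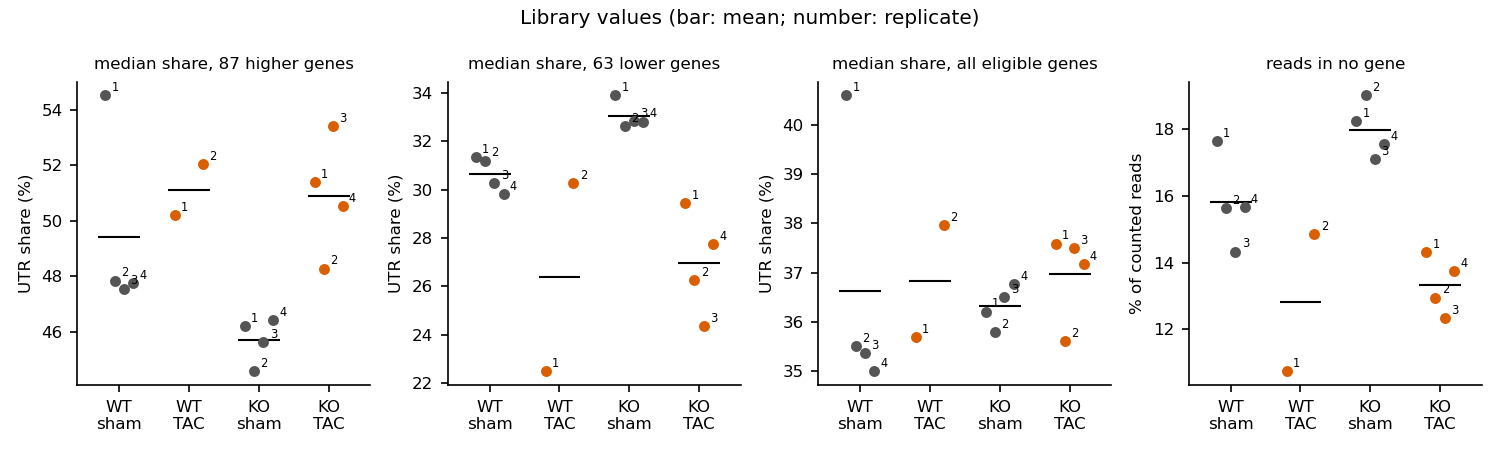
Library values in the 4 groups: the median UTR share (percent) of the 87 higher-share genes, of the 63 lower-share genes and of all 7526 genes, and the percentage of counted reads that fell in no gene. Points are libraries, numbers are replicates and bars are group means. WT sham 1 is highest for the higher-share genes and for all genes, and the library labelled WT TAC 1 is lowest for the lower-share genes and for reads in no gene.

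The lower-share genes had medians of 29.8 to 31.3% in WT sham and 32.6 to 33.9% in KO sham. After TAC the medians were 22.5% in the library labelled WT TAC 1, 30.3% in WT TAC 2 and 24.3 to 29.4% in KO. WT TAC 2 therefore lay within the WT sham range. The share of reads in no gene moved with these medians: it was 15.8% ± 1.37 in WT sham, 17.98% ± 0.833 in KO sham and 13.3% ± 0.870 in KO TAC (SD, n = 4 each), 10.7% in the library labelled WT TAC 1 and 14.9% in WT TAC 2. The WT difference in that share was -3.01 points (exact two-sided permutation p = 0.133, n = 2 and 4, with 0.0667 the smallest possible). Its part in the result was not tested beyond a fit with that share as a covariate, in which edgeR called no gene and 46 of the 150 had the KO sign at unadjusted p below 0.05. The median share over all genes was 36.6% ± 2.66 in WT sham and 36.8% ± 1.60 in WT TAC (SD, n = 4 and 2), a difference of 0.213 points (exact permutation p = 0.867), or 1.34 points with WT TAC 2 alone.

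The share was tested in WT by the edgeR quasi-likelihood test on UTR and coding counts, as the log2 change of the odds of UTR against coding reads, over 7427 genes. 2 genes passed an adjusted p of 0.05 (0.0269% of those tested), and both, Syngr1 and Atp5l, were among the 63 lower-share genes. At an unadjusted p below 0.05 the test found 11 of the 87 higher-share genes with a higher share (background 1.64%) and 26 of the 63 lower-share genes with a lower one (background 2.87%). None had the opposite sign, and the 37 genes compare with 4.51% of all tested in either direction. Without the library labelled WT TAC 1 the test called no gene, by edgeR, and the counts at unadjusted p were 15 (background 3.70%) and 7 (background 1.12%). Without WT sham 1 it called 44 genes, 6 of them selected, and the counts at unadjusted p were 41 (background 15.1%) and 26 (background 3.41%).

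Syngr1 (ENSMUSG00000022415.12, chr15:80091334-80119501, plus strand) encodes a vesicle membrane protein of the synaptogyrin family. Its UTR share was 26.5, 30.2, 27.04 and 26.4% in WT sham, 16.9% in the library labelled WT TAC 1 and 18.8% in WT TAC 2. In KO it was 28.4, 30.7, 29.0 and 27.6% in sham and 22.2, 20.6, 23.8 and 20.99% after TAC. All 6 TAC values lay below all 8 sham values. The WT difference was -9.65 points (log2 odds -0.81, SE 0.12, edgeR adjusted p = 0.00947). Its coding count rose in WT (log2 0.54, edgeR adjusted p = 0.00549), while its UTR count had a log2 change of -0.26 (adjusted p = 0.259). The annotation holds no retained intron transcript for Syngr1. Without the library labelled WT TAC 1 the log2 odds were -0.71 and the edgeR adjusted p was 0.696, and the coding count no longer passed (log2 0.42, adjusted p = 0.1498). Without WT sham 2 they were -0.74 and 0.0605. The edgeR call was also lost with WT libraries only (adjusted p = 0.549), 10-week libraries only (0.0622) or the share of reads in no gene as a covariate (0.11). Over all alternatives the odds lay between -0.90 and -0.71.

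Atp5l (ENSMUSG00000038717.8, chr9:44912557-44920742, minus strand) encodes subunit g of the mitochondrial ATP synthase. Its UTR share was 18.3, 20.2, 18.4 and 21.2% in WT sham, 6.76% in the library labelled WT TAC 1 and 12.95% in WT TAC 2. In KO it was 20.5, 21.5, 18.6 and 20.5% in sham and 14.4, 10.5, 13.5 and 15.9% after TAC. The TAC and sham values did not overlap in either genotype. The WT log2 odds changed by -1.16 (SE 0.20, edgeR adjusted p = 0.0222). Its UTR count fell (log2 -1.09, edgeR adjusted p = 0.00371), and its coding count had a log2 change of 0.04 (adjusted p = 0.897). Of its annotated non-coding exonic sequence, 5899 of 6134 bases lie outside the UTRs of coding transcripts, and an antisense gene overlaps its exons. The edgeR call was lost without WT sham 2 (log2 odds -1.14, adjusted p = 0.0741) or WT sham 4 (-1.11, 0.0936). It was also lost with WT libraries only (0.549), 10-week libraries only (0.0791) or the share of reads in no gene as a covariate (0.116). By limma the adjusted p was 0.209. Without the library labelled WT TAC 1 neither the share (log2 odds -0.70) nor the UTR count (log2 -0.69) passed.

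**Figure D3:**
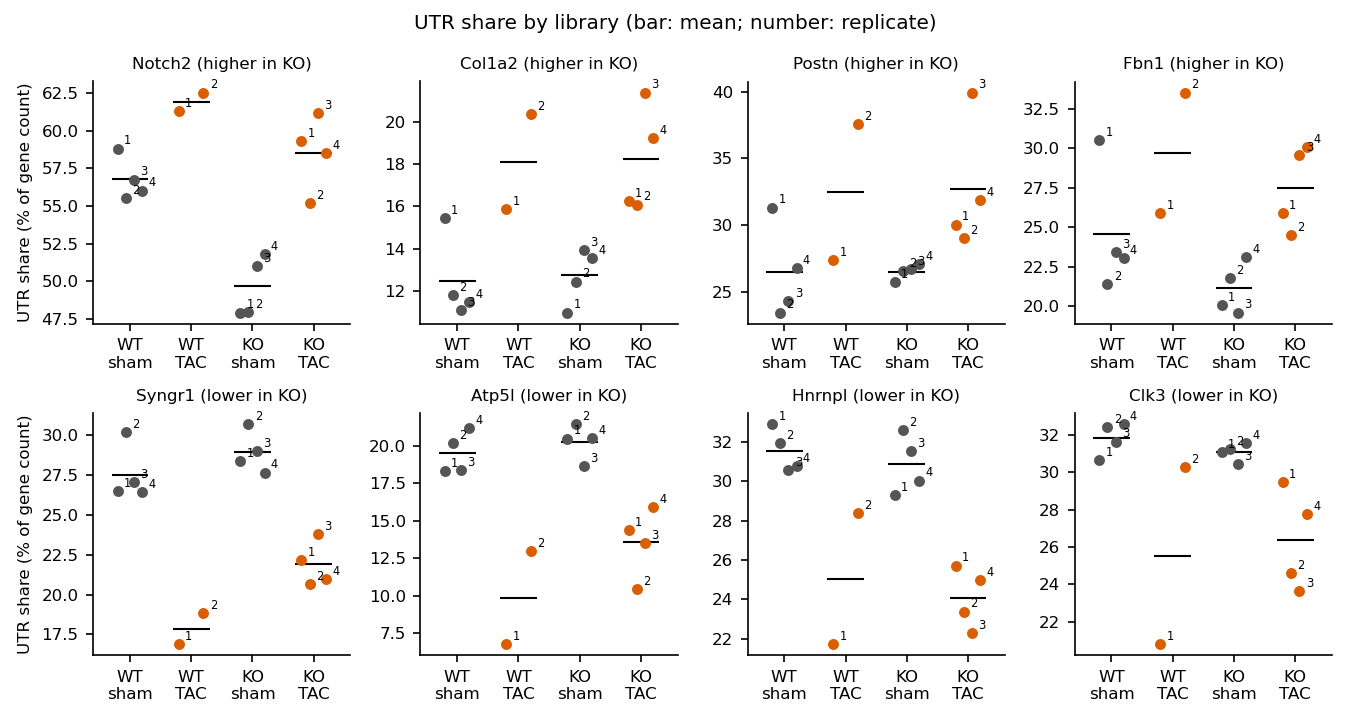
UTR share (percent of the gene count) in each of the 14 libraries for 4 higher-share and 4 lower-share genes. Points are libraries, numbers are replicates and bars are group means, and the y axes do not start at 0. In Syngr1 and Atp5l all TAC libraries lie below all sham libraries of the same genotype, whereas in Clk3 and Hnrnpl the library labelled WT TAC 1 lies well below WT TAC 2.

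Of 43 matrix and fibrosis genes with enough counts, 6 were among the 150, all with a higher share: Fbn1, Postn, Col1a2, Nid1, Col5a1 and Fbln1. In KO, the contrast that the selection used, 15 of the 43 were apart with a higher share (background 4.94%) and 0 with a lower one (4.03%). In WT 5 were apart with a higher share (background 2.95%) and 1 with a lower one (5.30%), and with WT TAC 2 alone 22 (15.6%) and 2 (11.0%). Over the list the median difference was 2.69 points in KO, 1.47 points in WT and 2.48 points with WT TAC 2 alone, against 0.513, 0.0645 and 0.700 points over all 7526 genes. Lists differed in the WT test at unadjusted p below 0.05. Of 24 load-induced genes, 22 of them called higher by gene count, 0 had a higher and 2 a lower share. Of 47 respiratory chain and TCA cycle genes 0 were higher and 10 lower, and of 29 sarcomere genes 0 and 5. Of 9 fibroblast markers 5 were higher and 0 lower. With WT TAC 2 alone the median differences of these 4 lists were -0.0324, -0.144, 0.0522 and 4.57 points. Of the 43 matrix genes the test had 9 with a higher share (background 1.64%) and 1 with a lower one (2.87%), and 0 at adjusted p. Without the library labelled WT TAC 1 it had 14 (background 3.70%) and 0 (1.12%) at unadjusted p, and again 0 at adjusted p. Their counts rose as well, with 33 of the 43 called higher in WT by edgeR (background 7.06%) and 0 lower, and 23 without that library (background 1.93%).

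Col1a2 (ENSMUSG00000029661.16, chr6:4504814-4541544, plus strand), a chain of fibrillar collagen, had UTR shares of 15.5, 11.8, 11.1 and 11.5% in WT sham, 15.9% in the library labelled WT TAC 1 and 20.4% in WT TAC 2. In KO they were 11.0, 12.4, 13.95 and 13.6% in sham and 16.2, 16.1, 21.4 and 19.2% after TAC. The groups did not overlap in either genotype, although WT sham 1 came within a point of the library labelled WT TAC 1. The WT log2 odds were 0.64 (SE 0.16, edgeR adjusted p = 0.376), and the call passed without WT sham 1 (0.76, adjusted p = 0.0038) and with libraries centred on their median (0.62, adjusted p = 0.0342). Its UTR count rose by 2.00 and its coding count by 1.37 on the log2 scale in WT (edgeR adjusted p = 2.423e-07 and 1.038e-05). With WT TAC 2 alone the odds were 0.86 (adjusted p = 0.696), and both counts still rose (2.04 and 1.19, adjusted p = 6.14e-06 and 7.418e-04).

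Postn encodes periostin, a matricellular protein of activated fibroblasts. Its share was 31.3, 23.5, 24.3 and 26.8% in WT sham, 27.4% in the library labelled WT TAC 1 and 37.6% in WT TAC 2. In KO it was 25.8, 26.6, 26.8 and 27.1% in sham and 30.1, 29.0, 39.9 and 31.9% after TAC. The KO groups did not overlap, but the library labelled WT TAC 1 lay inside the WT sham range (log2 odds 0.41, SE 0.18, edgeR adjusted p = 1). The odds were 0.75 with WT TAC 2 alone (adjusted p = 0.925). Its gene count rose in WT from 68.2 to 683.1 CPM, scaled by TMM (log2 3.33, edgeR adjusted p = 4.796e-07), and by 2.84 on the log2 scale with WT TAC 2 alone (adjusted p = 5.513e-06). Fbn1, which encodes the microfibril protein fibrillin-1, differed by 6.39 points in KO, 5.13 points in WT and 8.94 points with WT TAC 2 alone. Its count rose by 1.41 on the log2 scale in WT (edgeR adjusted p = 6.169e-04), and by 0.94 with WT TAC 2 alone (adjusted p = 0.036). Nid1, a basement membrane linker, differed by 5.31, 3.94 and 7.31 points.

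The matrix list shares genes with the fibroblast markers, among them Col1a1, Col1a2, Dcn and Postn, so it is not independent of these markers. Their summed level over 10 markers was 2423 to 3034 CPM in WT sham, 3613 and 4311 CPM in the WT TAC libraries, 2081 to 2463 CPM in KO sham and 2529 to 3000 CPM in KO TAC, with no marker at 0 in all libraries. Of the 9 fibroblast markers with enough counts, 5 were apart in KO with a higher share (background 4.94%), and 2 of these, Postn and Col1a2, were among the 150. All of the 5 except Ddr2 are also in the matrix list. In WT 2 of the 9 were apart with a higher share (background 2.95%), and 7 with WT TAC 2 alone (background 15.6%). In whole hearts more cells of a type and more RNA per cell cannot be told apart, and the part of fibroblast content in the shares was not tested. Cardiomyocyte markers gave 0 selected genes, and 4 of 8 were apart with a lower share in KO (background 4.03%), 1 in WT (5.30%) and 1 with WT TAC 2 alone (11.0%). In KO these were Tnnt2 (-4.12 points), Pln (-0.935), Tnni3 (-0.756) and Myh6 (-0.0867). Their mean KO shares in sham and TAC hearts were 11.96 and 7.837% in Tnnt2 and 81.31 and 80.37% in Pln. In Tnni3 they were 2.645 and 1.888%, and in Myh6 0.347 and 0.2604%. A share as low as in Tnni3 or Myh6 cannot fall by enough points to be selected, so its absence from the selection shows no lack of change. The median over the 8 was -0.00317 points in KO, and 4 of the 8 had a higher share there. The atrial and adipocyte lists had no gene with enough counts.

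Clk2 and Clk3 were the selected genes of the 23 CLK and SRPK kinases and SR proteins with enough counts, and Hnrnpl and Rbm5 came from the 41 other splicing regulators. Upf3a, a factor of nonsense-mediated decay, was the only one of 27 mRNA decay genes. None of the 21 cleavage and polyadenylation factors was selected. These 5 genes had a lower share, but the lists they come from did not share 1 direction. The share was higher after TAC in KO in 8 of the 23, 18 of the 41, 22 of the 27 and 10 of the 21 genes of these lists, in that order, and in 4721 of all 7526 genes. In WT it was higher in 8, 14, 21 and 9 of them, and in 3953 of all. In KO, the contrast that the selection used, 3, 7, 2 and 1 genes of these lists were apart with a lower share (background 4.03%). With a higher share 1, 2, 2 and 0 were apart (4.94%). In WT the counts were 2, 4, 1 and 0 lower (5.30%) and 0, 1, 2 and 1 higher (2.95%). With WT TAC 2 alone they were 3, 5, 1 and 0 lower (11.0%) and 3, 3, 8 and 4 higher (15.6%). The median difference of the CLK and SR list was -0.760 points in KO, -0.231 points in WT and -0.113 points with WT TAC 2 alone. That of the other splicing regulators was -0.105, -0.389 and 0.296 points. The mRNA decay genes had medians of 1.02, 0.832 and 1.87 points and the cleavage factors -0.0674, -0.209 and 0.167 points. Over all genes the values were 0.513, 0.0645 and 0.700 points.

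Clk3 itself (ENSMUSG00000032316.8, chr9:57750624-57765860, minus strand) had UTR shares of 30.6, 32.4, 31.6 and 32.6% in WT sham and 31.1, 31.2, 30.4 and 31.6% in KO sham. After TAC they were 29.5, 24.6, 23.7 and 27.7% in KO, 20.8% in the library labelled WT TAC 1 and 30.3% in WT TAC 2. The sham groups of both genotypes covered nearly the same range, and WT TAC 2 lay just below the lowest WT sham value. The KO difference was -4.69 points and the WT difference -6.27 points (log2 odds -0.42, SE 0.15, edgeR adjusted p = 0.845). The WT value rested on the library labelled WT TAC 1. With WT TAC 2 alone the difference was -1.56 points and the log2 odds were -0.11 (edgeR adjusted p = 0.951), whereas with the library labelled WT TAC 1 alone they were -0.83 (adjusted p = 0.0368). Which exons the KO allele lacks is not known here, and an antisense gene overlaps its exons.

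Clk2, a kinase of the same family, had shares of 24.2, 25.2, 19.4 and 21.8% in WT sham and 27.4, 26.8, 26.3 and 29.0% in KO sham. After TAC they were 19.3, 16.7, 24.3 and 22.6% in KO and 20.1 and 20.4% in WT. The WT TAC values lay within the WT sham range (difference -2.38 points, or -2.27 with WT TAC 2 alone). Hnrnpl, an hnRNP protein that binds CA repeats, had shares of 32.9, 31.95, 30.6 and 30.8% in WT sham, 21.7% in the library labelled WT TAC 1 and 28.4% in WT TAC 2. Its KO shares were 29.3 to 32.6% in sham and 22.3 to 25.7% after TAC, so that TAC and sham did not overlap in either genotype. Its UTR count fell in WT (log2 -0.68, edgeR adjusted p = 0.0259), while the coding count had a log2 change of -0.26 (adjusted p = 0.183). The UTR count did not pass with WT TAC 2 alone (log2 -0.32, edgeR adjusted p = 0.4501), and the log2 odds of the share went from -0.47 (adjusted p = 0.4899) to -0.22 (adjusted p = 0.931).

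Rbm5, a splicing regulator, differed by -6.04 points in KO, -1.52 points in WT and -1.42 points with WT TAC 2 alone. Upf3a had shares of 17.4 to 20.8% in KO sham and 8.24 to 12.4% in KO TAC. In WT they were 13.5 to 15.97% in sham, 8.87% in the library labelled WT TAC 1 and 11.4% in WT TAC 2, with no overlap (log2 odds -0.61, SE 0.21, edgeR adjusted p = 0.732, and -0.42 with WT TAC 2 alone).

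The UTR and coding counts were then taken one by one, scaled by the library size of all gene counts. In the lower-share genes the UTR count differed most. Its median log2 difference was -0.43 in KO and -0.26 in WT, while the median of the coding count was 0.05 and -0.01. The UTR count differed more than the coding count in 54 of the 63 genes in KO and in 44 of 63 in WT. In the higher-share genes both columns differed in KO, with medians of 0.21 for UTR and -0.14 for coding counts. A higher UTR count with a lower coding count was found in 45 of the 87. In WT the medians were 0.11 and -0.04. With WT TAC 2 alone they were 0.13 and -0.09 in the higher-share genes, and -0.08 and 0.04 in the lower-share genes, where the UTR count differed more in 39 of 63. The KO values describe the contrast that chose the genes and support nothing.

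**Figure D4:**
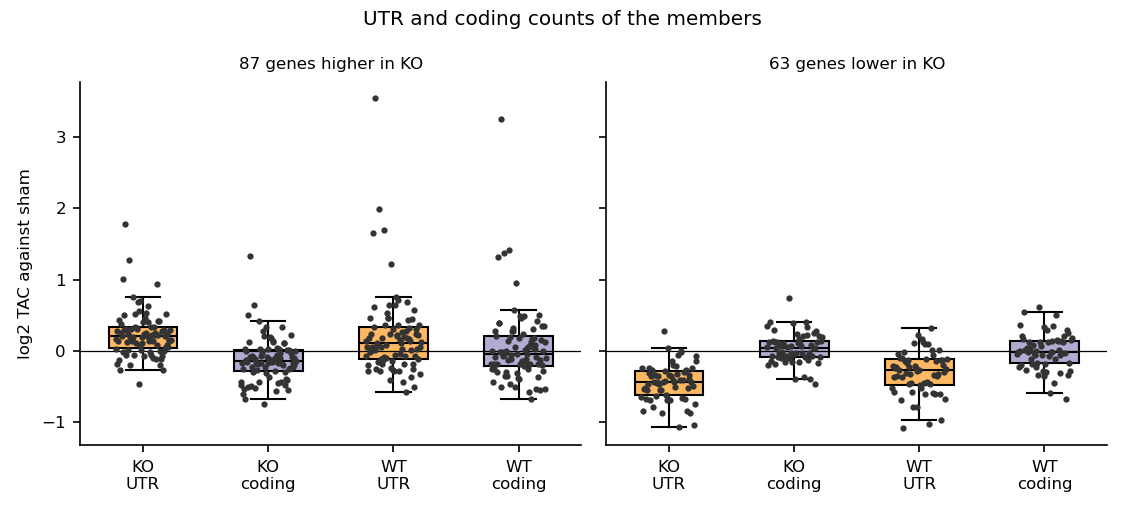
Log2 difference of TAC against sham of the UTR count and of the coding count, by genotype, for the 87 genes with a higher and the 63 with a lower share in KO. Points are genes, boxes span the quartiles with the median as a line. In the lower-share genes the UTR boxes lie below 0 and the coding boxes around 0. The highest points in the left panel are Postn.

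In WT the UTR count of 16 of the 87 higher-share genes rose (edgeR adjusted p below 0.05, background 5.06%), and that of 13 of the 63 lower-share genes fell (background 4.46%). The UTR count of 1 higher-share gene, Lysmd4, fell, so that 30 of the 150 passed (background 9.52%). The coding count rose in 7 of the higher-share and 2 of the lower-share genes (background 4.40%), and fell in 2 and 4 (background 3.55%, and 7.96% in either direction). The gene count rose in 15 and 2 (background 6.91% of all genes tested and 7.06% of those with at least 200 counts) and fell in 3 and 6 (background 5.30% and 6.07%). In all, 26 of the 150 genes passed the gene count test in WT. Without the library labelled WT TAC 1 the test called 9 of the 150 by gene count (background 3.16%), 12 by UTR count (background 2.14%) and 3 by coding count (background 1.83%).

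The annotation of the 2 sets differed. The selection did not use the annotation itself, but the UTR share of a gene depends on the lengths compared here. The median KO sham share was 45.4% in the higher-share and 33.4% in the lower-share genes, against 36.4% over all. The contrasts in length are therefore not independent of the selection. All 150 were protein-coding, as were 7443 of the 7526 genes. The lower-share genes were compact in coding sequence, with a median of 1219 coding bases, against 2637 in the higher-share genes and 1473 over all. Their median gene span was 22260 bases, against 70050 and 27270. The median 3' UTR length was 973 bases in the lower-share genes, 2199 in the higher-share genes and 1389 over all.

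Non-coding exonic sequence outside the UTRs of coding transcripts measured a median of 3009 bases in the lower-share genes, 532 in the higher-share genes and 772 over all. It made up a median of 64.0% of the non-coding exonic sequence in the lower-share genes, against 17.3% and 32.0%. A retained intron transcript was annotated in 52 of the 63 lower-share genes (82.5%), in 53 of the 87 higher-share genes (60.9%) and in 64.7% of all genes. These are properties of the annotation, described without a test. The 150 genes lay on the X chromosome and all autosomes, 7 of them on chromosome 9, which carries Clk3. Single genes spread widely around these medians: among the higher-share genes that percentage was 83.0% in Col1a2 and 87.5% in Postn.

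**Figure D5:**
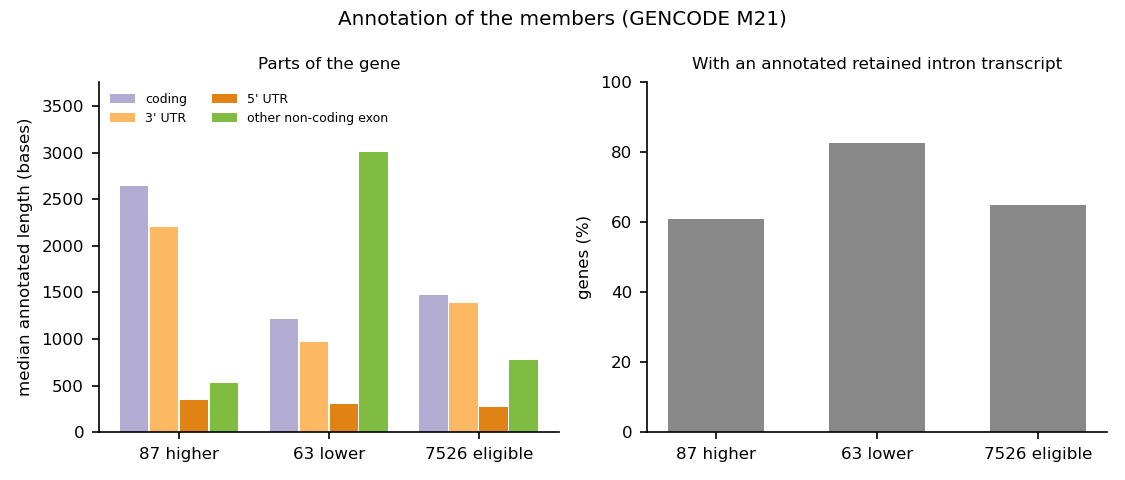
Annotation of the genes in GENCODE M21. The left panel gives the median length in bases of coding sequence, 3' UTR, 5' UTR and other non-coding exonic sequence for the 87 higher-share genes, the 63 lower-share genes and all 7526 genes, and the right panel the percentage of each set with an annotated retained intron transcript. The lower-share genes have the longest other non-coding sequence, at 3009 bases.

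Exons of an antisense gene overlapped 28 of the higher-share and 19 of the lower-share genes (32.2% and 30.2%, against 33.2% of all genes). Among the genes named these were Btbd9, Zfp710, Prickle3, Taf1d, Atp5l, Clk3, Hnrnpl, Fbn1 and Nid1. The libraries were prepared with a strand-specific kit, but the sources used here do not state the strand setting of the counting, and reads of the antisense partners cannot be told apart in these genes.

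The precision of a share is set by the gene's counts. The 95% Wilson interval of a share in 1 library had a half-width of 3.34 points at the median over the 150 genes and 14 libraries, between 0.789 and 6.83 points, for counting error only. The selection threshold of 4.35 points is a difference between means of 4 libraries each, so it is not directly comparable with that half-width. The last genes inside were Tmed2 (4.36 points), a cargo receptor of the early secretory pathway, Fam53a (-4.35) and Pla2g16 (-4.35), a phospholipase. The first outside were Sat1 (4.35), Nudt12 (4.34) and Map3k1 (4.34). Their WT differences were 3.06, -6.43, -4.81, 0.557, -0.326 and 2.45 points in the same order, and for the 3 inside 2.84, -3.88 and -4.99 points with WT TAC 2 alone. Ranking the same genes by log2 odds in place of points kept 34 of the 150, and a minimum of 500 counts kept 67. Most of the genes ranked by log2 odds had a lower share, so the split by direction depends on the scale. Their WT sign agreement was 86.0%, with 70.0% for higher-share and 88.5% for lower-share genes.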

How the data were processed

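RNA was measured in 14 mouse heart libraries made, per the labels' protocols, by poly(A) selection with a strand-specific kit. The deposited files hold whole-number counts per gene, with coding and UTR counts in separate columns per the file headers, and the gene count equalled their sum in all 14 files. The submitters' processing notes name STAR 2.4.2a, Picard 2.10.3 and the builds mm10 and GRCm38. The sources used here state neither the gene annotation, the strand setting nor the definition of the UTR column. Identifiers were matched to GENCODE M21 (GRCm38): 51719 of 51912 were found, 47734 with the same version.

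The genes and the lists were chosen with earlier results of these data known. Genes named are the 10 largest differences in each direction (unnamed gene models left out), those called in WT, up to 4 of each list and those nearest the threshold. 1 gene that the rule names is not reported here. The UTR share was tested in WT with edgeR 4.0.16 (quasi-likelihood) on the UTR and coding counts of genes with at least 200 counts in all libraries, with 1 coefficient per library and 1 UTR coefficient per group over all 14 libraries. Of these genes, 99 could not be tested. Gene, UTR and coding counts were tested with 1 coefficient per group, TMM scaling and, for the 15651 genes of the gene count, filterByExpr (minimum 10). P-values are Benjamini-Hochberg adjusted over all genes tested. limma 3.58.1 and DESeq2 1.42.0 were alternatives. Both edgeR tests were checked on simulated counts. The simulation held no shift of the UTR share across a whole library, so it does not cover a library such as WT sham 1. Library sizes hold gene counts only, without ambiguous reads or reads in no gene.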

Additional observations from a re-analysis of the deposited data

Results flagged for a closer look

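Of 108 groups of 4 libraries examined for a value far from the other 3, 9 had one, where chance gives about 1 in 20. WT sham 1 gave 6 of these, all high: its median UTR share over all genes (40.6%) and over the higher-share genes (54.5%), and its shares of Abca1 (65.5%), Col1a2 (15.5%), Nid1 (69.2%) and Tmed2 (79.0%). The others were the Syngr1 share in WT sham 2 (30.2%), high against 26.4 to 27.04%, the median of the lower-share genes in Clk3 KO sham 1 (33.9%), high against 32.6 to 32.8%, and the Abca1 share in Clk3 KO TAC 2 (54.0%), low against 58.8 to 59.7%.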

How the results depend on the processing

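The sign agreement of WT with KO ranged from 76.0 to 94.0% with a WT library left out. It was 58.6 to 95.4% for higher-share and 73.0 to 100% for lower-share genes. Its background moved as well. Over all genes with a higher KO mean it was 43.6% without WT TAC 2 and 83.7% without WT sham 1. The number of genes called changed with the processing. For the UTR share, 1 gene was called by limma, 6 with libraries centred, and 0 by edgeR with WT libraries only, with 10-week libraries only or with the no-feature share as a covariate. The selected genes called numbered 1 by limma and 0 in the last 3. Genes with the KO sign at unadjusted p below 0.05 numbered 37, and 22 by DESeq2, 20 with at least 500 counts and 23 with WT libraries only. Leaving out 1 of the 14 libraries gave 0 to 44 genes called, 0 to 7 of them selected, and 22 to 67 at unadjusted p. Gene counts called 1074 genes (17 selected) with WT libraries only and 938 (16) with 10-week libraries only, against 1912 (26). With 1 library left out the ranges were 512 to 2224 (9 to 34), for UTR counts 159 to 880 (12 to 42) and for coding counts 136 to 1010 (3 to 26). Genes apart in WT numbered 32, and 85 with 10-week libraries only, 102 without both libraries that stand apart and 34 to 79 with 1 left out. Fewer libraries make non-overlap easier. The library-wide difference was -0.42 points as a pooled share and -0.917 to 1.54 with 1 library left out.

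The log2 odds changed sign in Ptpn21 (-0.00258 centred), Btbd9 (0.0842) and Epg5 (0.0582) with 10-week libraries only, and in Epg5 (0.291), Smarcb1 (0.0673) and Rbm5 (0.0016) with the covariate. With 1 library left out it ranged across 0 in Epg5 (-0.169 to 0.12), Btbd9 (-0.158 to 0.0152), Ptpn21 (-0.257 to 0.321), Smarcb1 (-0.599 to 0.0892) and Rictor (-0.151 to 0.278). The cause was not tested. Where the lone WT TAC library was left, its spread was taken from the other groups. No paired analysis was possible because the labels carry no replicate numbers shared between groups. Counts per gene limit a single share to a few points.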
